A study of Homo sapiens with 18 samples.

Results

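Mitosis and G2/M genes are described here, as 35 genes chosen by name for their roles in entry into and passage through mitosis. All 35 were present in a count table of 58735 genes, and all 35 were among the 20301 genes with enough counts to be tested. The cells were OCI-Ly18-GFP, an established line of diffuse large B-cell lymphoma that carries green fluorescent protein, grown under the skin of immunodeficient NSG mice. One group of 3 mice (M_767, M_768 and M_774) received tazemetostat, also called EPZ6438, which blocks the histone methyltransferase EZH2, at 150 mg/kg daily by oral gavage. The other group of 3 mice (M_766, M_769 and M_770) received vehicle. Treatment began 3 days after implantation and lasted 14 days. Both groups were then infused with CART19 cells, which are T cells engineered with a chimeric antigen receptor. Tumour cells were separated by fluorescence 11 days after that infusion, and their RNA was sequenced. Every animal therefore bore the same cell line and had met CART19 cells. Continuation of the drug after the infusion is not stated in the labels, and NSG mice lack lymphocytes of their own, so the model holds no host T or B cells.

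In dividing cells, cyclin B bound to CDK1 drives entry into mitosis, and the Aurora and Polo-like kinases mature the spindle and correct its attachments. Kinetochore proteins tie chromosomes to microtubules, the spindle checkpoint holds the anaphase-promoting complex until every chromosome is attached, and that complex then marks the cyclins and securin for destruction. Transcripts of these genes peak in G2 and mitosis, under the DREAM repressor and the MYB-MuvB and FOXM1 activators, which act through promoter elements called the cell cycle genes homology region (CHR) and the CCAAT box. A pool of lymphoma cells with more cells in G2 or mitosis therefore carries more of these transcripts.

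Promoters are shown because many of these genes, though not all, share the letters of these elements. RefSeq windows on build GRCh38.p14, from 250 bases before to 50 bases after the annotated start, were found for 29 of the 35 genes, in 32 windows because 3 genes have a pair of annotated starts. AURKA, TTK, TPX2, BIRC5, BUB3 and UBE2C had no match. The 6 windows below are printed 5′ to 3′ on the gene's own strand, with capitals marking TTTGAA or TTCGAA (the CHR letters searched) and CCAAT, each on either strand. They are CCNB2 (chr15:59104896-59105195, plus strand), PLK1 (chr16:23678639-23678938, plus strand), MKI67 (chr10:128126374-128126673, minus strand), CENPA (chr2:26785806-26786105, plus strand), ANLN (chr7:36389612-36389911, plus strand) and KIF2C (chr1:44739587-44739886, plus strand). CCNB2 and PLK1 show the usual arrangement, MKI67 is the proliferation marker, and CENPA, ANLN and KIF2C are the 3 genes whose groups of mice did not overlap.
CCNB2: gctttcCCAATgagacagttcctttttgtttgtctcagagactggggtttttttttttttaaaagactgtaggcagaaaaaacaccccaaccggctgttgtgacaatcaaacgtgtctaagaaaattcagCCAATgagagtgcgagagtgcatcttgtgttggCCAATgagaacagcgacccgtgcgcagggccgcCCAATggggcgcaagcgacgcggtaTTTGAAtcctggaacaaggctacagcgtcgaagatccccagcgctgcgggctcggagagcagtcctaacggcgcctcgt
PLK1: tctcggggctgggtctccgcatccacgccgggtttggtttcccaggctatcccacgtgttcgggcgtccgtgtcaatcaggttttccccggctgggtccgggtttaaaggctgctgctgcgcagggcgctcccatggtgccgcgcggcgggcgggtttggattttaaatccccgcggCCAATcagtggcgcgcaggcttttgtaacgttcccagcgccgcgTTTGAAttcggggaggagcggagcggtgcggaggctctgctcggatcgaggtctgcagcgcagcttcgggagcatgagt
MKI67: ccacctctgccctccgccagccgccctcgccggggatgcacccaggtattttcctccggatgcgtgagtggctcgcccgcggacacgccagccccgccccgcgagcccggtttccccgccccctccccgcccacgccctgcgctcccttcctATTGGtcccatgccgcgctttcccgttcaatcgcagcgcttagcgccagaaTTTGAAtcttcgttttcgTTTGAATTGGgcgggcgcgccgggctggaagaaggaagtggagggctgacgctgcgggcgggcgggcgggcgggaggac
CENPA: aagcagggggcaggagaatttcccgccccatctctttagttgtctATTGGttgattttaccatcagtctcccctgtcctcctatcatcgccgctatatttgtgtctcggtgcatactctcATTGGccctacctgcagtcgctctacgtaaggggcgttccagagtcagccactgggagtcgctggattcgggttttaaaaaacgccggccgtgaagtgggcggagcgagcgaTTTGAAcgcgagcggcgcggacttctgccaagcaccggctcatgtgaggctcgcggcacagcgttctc
ANLN: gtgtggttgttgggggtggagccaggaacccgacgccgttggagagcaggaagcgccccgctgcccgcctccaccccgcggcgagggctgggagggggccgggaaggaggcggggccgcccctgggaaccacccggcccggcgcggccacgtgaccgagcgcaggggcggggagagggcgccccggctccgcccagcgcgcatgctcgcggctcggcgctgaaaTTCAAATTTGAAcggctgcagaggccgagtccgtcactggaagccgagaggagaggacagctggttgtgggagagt
KIF2C: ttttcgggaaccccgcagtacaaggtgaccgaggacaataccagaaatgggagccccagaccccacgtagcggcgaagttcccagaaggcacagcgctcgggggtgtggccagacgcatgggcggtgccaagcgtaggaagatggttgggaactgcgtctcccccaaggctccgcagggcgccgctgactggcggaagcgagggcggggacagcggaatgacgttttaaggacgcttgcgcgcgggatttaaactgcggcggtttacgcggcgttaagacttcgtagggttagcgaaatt

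CHR letters stood in 25 of the 32 windows (78.1%), against 16.4% of all 35116 RefSeq promoter windows of the same length. The CCAAT letters stood in 25 of 32 (78.1%), against 34.6% of all windows, and at 2 or more places in 46.9%, against 10.8% of all windows. Both motifs stood together in 20 of 32 (62.5%), against 6.38% of all windows, and in 1 of the 32 windows a match of each shared a base. In CCNB2 the CHR letters began 29 bases before the start, and 4 CCAAT matches lay upstream of them. PLK1 also had its CHR match at 29 bases before the start, with a single CCAAT match at 73 bases before it. In CENPA the CHR letters began 18 bases before the start. ANLN had a pair of adjoining CHR matches and no CCAAT, whereas KIF2C had neither set of letters in its window. An E2F motif (TTTCCCGC or TTTCGCGC or TTTGCCGC or TTTGGCGC, either strand) stood in 12.5% of the windows, against 3.31% of all windows. These matches describe letters in a window and were not tested for binding.

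Sequencing of the 18 libraries, 3 for each mouse, gave 16124494 to 26336269 counts per library and 55712115 to 69816184 per mouse once the 3 were summed. B-cell markers were abundant. PAX5 had 51396, 30696 and 34593 counts in tazemetostat mice, against 35513, 33112 and 34101 counts in vehicle mice, and CD79A had 19502, 20743 and 17833 counts in tazemetostat mice, against 19565, 15139 and 15545 counts in vehicle mice. Of the T-cell markers, CD3D and CD3G had 0 counts in all 6 mice, and CD3E had 1, 7 and 3 counts in tazemetostat mice, against 3, 4 and 9 counts in vehicle mice. The whole list of 18 T-cell markers summed to 357 to 381 CPM (counts per library scaled by depth) in tazemetostat mice and 363 to 422 CPM in vehicle mice, nearly all of it from IL7R, TRBC2, CD247 and TRAC, and 2 of the 18 were at 0 throughout. Myeloid markers summed to 1.06 to 1.47 CPM in tazemetostat mice and 1.06 to 1.39 CPM in vehicle mice, and stromal markers to 3.89 to 5.45 CPM in tazemetostat mice and 2.63 to 6.05 CPM in vehicle mice. Genes of the response to tissue dissociation and stress moved with the groups. Their mean level was 5.41 ± 0.25 log2 CPM in tazemetostat mice and 4.62 ± 0.46 log2 CPM in vehicle mice (SD, n = 3 each), with 15 of 16 measured genes estimated higher in tazemetostat mice. Of these 16, 0 passed the adjusted threshold in edgeR, 11 (68.8%) had an unadjusted p under 0.05, against 6.55% of all tested genes, and 9 (56.2%) had groups that did not overlap, against 12.6% of all tested genes. Its part in the values below was not tested. Library C of tazemetostat mouse M_768 differed from libraries A and B of that mouse, at a chi-square per degree of freedom of 67.3 and 49.4, where the other pairs of libraries from 1 mouse lay between 2.02 and 4.81. Below, fold changes of mitotic genes chosen by name are given without library M_768_C where they move by over 1.5 times or lose their sign. Levels and fold changes of genes in the other lists, the stress genes among them, are given with all libraries only.

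The mitotic genes as a group were close to equal in tumours of tazemetostat and vehicle mice. None of the 35 passed an adjusted p of 0.05 in edgeR's quasi-likelihood test, where 0.0345% of all tested genes did. At the adjusted threshold limma-voom and DESeq2 likewise called 0, where they called 0.0246% and 0.656% of all genes given an adjusted p. At an unadjusted p under 0.05 in edgeR the count was also 0 of 35, against 6.55% of all genes. That unadjusted count changed with the setting. It was 3 of 35 with the mouse as a random effect (10.6% of all genes), 3 without M_766 (8.4%), 2 without library M_768_C (8.2%), 2 without M_770 (10.9%), 1 without M_768 (5.13%) and 1 with upper-quartile factors (6.86%). The estimated log2 fold change was below 0 for 30 of the 35, where 51.9% of all genes lay below 0. The median over the 35 was -0.08 on the log2 scale, against -0.01 over all genes tested, and the values ran from -0.20 in NUSAP1 to 0.15 in HMMR. With upper-quartile factors the median was -0.11 over the 35 and -0.04 over all genes, and the gap between both medians was -0.07, as it was with TMM factors. Estimates were above 0 for 5 genes, namely HMMR, ANLN, BUB1, MAD2L1 and DLGAP5. The sign of the estimate changed in at least 1 alternative for 14 of the 35 genes, BUB1, MAD2L1 and DLGAP5 among them. Approximate 95% intervals held 0 for all 35. Apart from PRC1, whose counts were few, the intervals lay between a 0.693-fold and a 1.32-fold level in tazemetostat mice relative to vehicle mice. In bulk RNA, fewer cells in mitosis and less of a transcript per cell cannot be told apart.

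**Figure D1:**
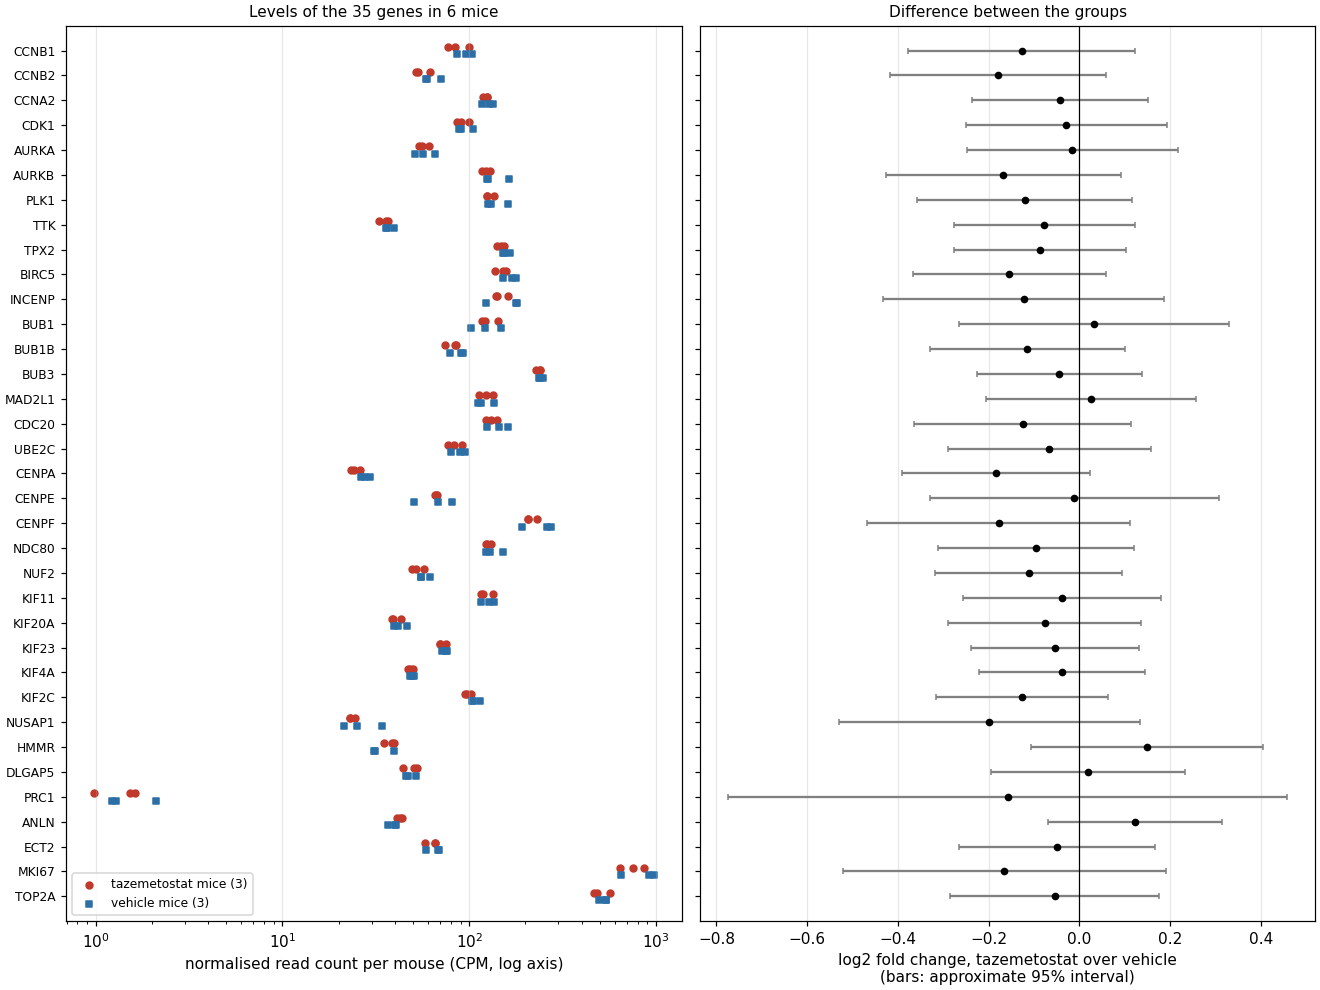
Left, normalised read count (CPM, log axis) of each of the 35 mitotic genes in the 3 tazemetostat mice (red circles) and the 3 vehicle mice (blue squares), with genes ordered by role. Right, the log2 fold change of tazemetostat over vehicle with its approximate 95% interval, which holds 0 for all 35 genes.

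Averaged over the 35 genes, the level was 6.34, 6.37 and 6.26 log2 CPM in tazemetostat mice M_767, M_768 and M_774, against 6.36, 6.38 and 6.44 log2 CPM in vehicle mice M_766, M_769 and M_770. The group mean was 6.32 ± 0.056 log2 CPM in tazemetostat mice and 6.39 ± 0.039 log2 CPM in vehicle mice (SD, n = 3 each), and the ranges overlapped, since M_768 was above M_766. One mouse in each group stood furthest from the rest. In tazemetostat mouse M_774 only 3 of the 35 genes lay above their mean over the 6 mice, with a median deviation of -0.09 on the log2 scale, whereas in vehicle mouse M_770 it was 24 of 35, with a median deviation of 0.09. The other 4 mice had 18 to 20 genes above the mean. Together the 35 genes took 0.454%, 0.418% and 0.411% of the counts in tazemetostat mice, against 0.419%, 0.471% and 0.473% in vehicle mice. These shares overlapped between the groups. MKI67, which was lowest in M_768 and M_766, weighed most in them, followed by TOP2A. With M_774 left out the median fold change over the 35 was -0.03, and with M_770 left out it was -0.05.

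**Figure D2:**
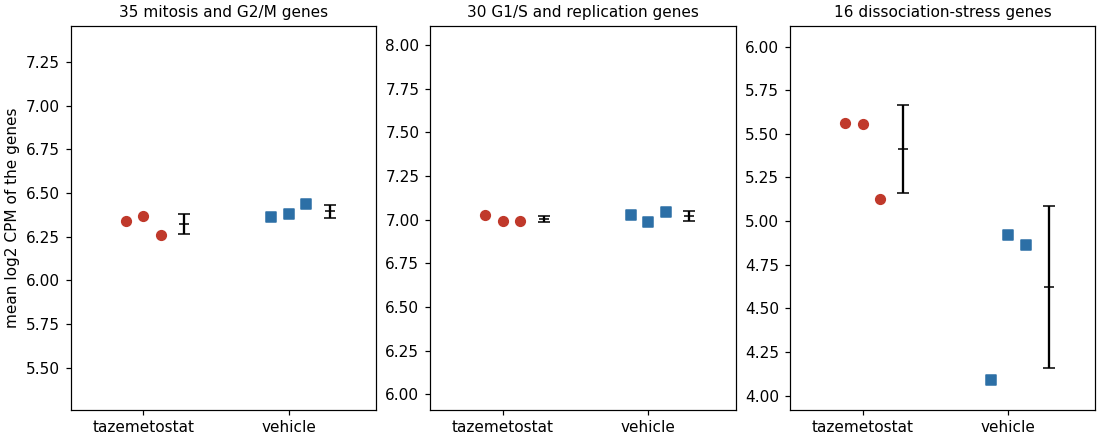
Mean log2 CPM of 35 mitotic genes, 30 G1/S and replication genes and 16 dissociation and stress genes, with 1 point per mouse and bars for the group mean ± SD over 3 mice, each panel with the same span of the axis. Mitotic genes averaged 6.32 in tazemetostat mice and 6.39 in vehicle mice, and the stress genes averaged 5.41 in tazemetostat mice and 4.62 in vehicle mice.

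Cyclins and CDK1, which open mitosis, were all 4 estimated slightly below vehicle, and none passed the test. CCNB2, a B-type cyclin that activates CDK1, had 51.9, 62.1 and 53.0 CPM in tazemetostat mice, against 70.5, 59.6 and 59.0 CPM in vehicle mice. Only M_768 reached into the vehicle range, in which M_766 was the highest. Its log2 fold change was -0.18 (SE 0.107), with an adjusted p of 0.839 in edgeR. CCNB1, the main mitotic cyclin, had 83.7, 99.2 and 77.4 CPM in tazemetostat mice, against 95.6, 85.7 and 103 CPM in vehicle mice. Here M_768 lay amid the vehicle values, and its groups overlapped as well. The fold change was -0.13 (SE 0.113) on the log2 scale, adjusted p 0.908. CDK1, the kinase of both cyclins, had 86.4, 100.01 and 90.2 CPM in tazemetostat mice, against 104, 90.2 and 87.7 CPM in vehicle mice. Cyclin A2, encoded by CCNA2 and needed in S phase and G2, had 124, 124 and 119 CPM in tazemetostat mice, against 117, 127 and 134 CPM in vehicle mice. For both, the groups overlapped, and the log2 fold change was -0.03 (SE 0.0999) for CDK1 and -0.04 (SE 0.0874) for CCNA2.

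Mitotic kinases and the passenger complex had estimates below vehicle for all 7 of their genes, none past the test. AURKB, the kinase that corrects faulty attachments from within the passenger complex, had 116, 130 and 122 CPM in tazemetostat mice, against 164, 124 and 126 CPM in vehicle mice. One vehicle mouse, M_766, lay far above the other 5, which overlapped. Its log2 fold change was -0.17 (SE 0.117), adjusted p 0.867. BIRC5, or survivin, which anchors that complex at the centromere, had 138, 158 and 151 CPM in tazemetostat mice, against 177, 151 and 169 CPM in vehicle mice. M_768 was above M_769, and otherwise the tazemetostat values were the lower ones. With all libraries the estimate was -0.15 (SE 0.0958) on the log2 scale, adjusted p 0.845. Without library M_768_C, M_768 had 143 CPM and M_769 had 151 CPM, and the groups still overlapped, since M_774 had 152 CPM. The estimate of BIRC5 was then -0.20, with an unadjusted p of 0.042 and an adjusted p of 0.592 in edgeR. BIRC5 and CENPA were the 2 genes of the 35 with an unadjusted p under 0.05 in that fit, against 8.2% of all genes. INCENP, the scaffold of the complex, differed more within the vehicle group than between groups, at 147 ± 12.2 CPM in tazemetostat mice and 160 ± 31.9 CPM in vehicle mice (SD, n = 3 each). AURKA, the centrosome kinase, had 54.2, 61.1 and 56.2 CPM in tazemetostat mice, against 56.7, 51.5 and 65.2 CPM in vehicle mice. All tazemetostat values stood inside the vehicle range. PLK1, the Polo-like kinase that triggers spindle assembly and cytokinesis, had 125, 136 and 124 CPM in tazemetostat mice, against 131, 126 and 161 CPM in vehicle mice. M_770 was its highest mouse, and the log2 fold change was -0.12 (SE 0.107) with an adjusted p of 0.908. TPX2, the activator of Aurora A, and the checkpoint kinase TTK had log2 fold changes of -0.09 (SE 0.0854) and -0.08 (SE 0.0901).

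Checkpoint genes lay on both sides of vehicle, with 2 of 4 estimates above vehicle and 2 below. BUB1, a kinase that recruits checkpoint proteins to kinetochores, had 142, 122 and 117 CPM in tazemetostat mice, against 103, 122 and 148 CPM in vehicle mice. The vehicle mice spanned more than the tazemetostat mice did, and M_766 was the lowest of all. BUB1B, which encodes the BUBR1 part of the mitotic checkpoint complex, had 84.5, 74.3 and 83.7 CPM in tazemetostat mice, against 79.2, 92.8 and 90.5 CPM in vehicle mice. Its 2 highest mice were vehicle mice, and its log2 fold change was -0.11 (SE 0.0968), adjusted p 0.900. MAD2L1, which holds CDC20 inactive, had a log2 fold change of 0.03 (SE 0.104). BUB3, the partner of BUB1 and BUBR1, had the smallest spread between mice of the 35 genes, at 235 ± 6.44 CPM in tazemetostat mice and 242 ± 5.31 CPM in vehicle mice (SD, n = 3 each).

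CDC20 and UBE2C act on the anaphase-promoting complex, as its activator and its ubiquitin-conjugating enzyme. CDC20 had 131, 141 and 123 CPM in tazemetostat mice, against 145, 125 and 161 CPM in vehicle mice. Vehicle mice M_766 and M_770 were its 2 highest, while M_769 lay among the tazemetostat mice. The log2 fold change was -0.13 (SE 0.108), adjusted p 0.900. UBE2C had 82.8, 91.7 and 76.8 CPM in tazemetostat mice, against 94.4, 80.0 and 88.8 CPM in vehicle mice. Its groups overlapped, and the log2 fold change was -0.07 (SE 0.101).

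Kinetochore genes held the smallest p of the 35. CENPA, the histone H3 variant that marks the centromere, had 23.4, 26.1 and 24.2 CPM in tazemetostat mice, against 29.4, 26.5 and 27.8 CPM in vehicle mice. Every tazemetostat mouse was below every vehicle mouse, although M_768 and M_769 were close to each other. Its log2 fold change was -0.18 (SE 0.0933), with an unadjusted p of 0.076 and an adjusted p of 0.801 in edgeR, so the difference did not pass. In all, 3 of 35 genes (8.57%) had groups that did not overlap, where 12.6% of all tested genes did. CENPA and KIF2C were lower, against a background of 6% in that direction, and ANLN was higher, against 6.58%. The count moved with the mice included, and so did the share over all genes. It was 8 of 35 (22.9%, against 20.1% of all genes) without M_767, 10 (28.6%, against 22.1%) without M_768 and 9 (25.7%, against 24.6%) without M_766. It was 3 (8.57%, against 19.9%) without M_774, 5 (14.3%, against 19.8%) without M_769 and 5 (14.3%, against 28.1%) without M_770. The count for CENPA is uncertain, since SLC35F6 lies on the same strand across 16943 of its bases and held 64.6% as many counts. CENPF, a large kinetochore and nuclear matrix protein, had 229, 206 and 206 CPM in tazemetostat mice, against 191, 260 and 275 CPM in vehicle mice. Vehicle mice were both the lowest (M_766) and the 2 highest. The log2 fold change was -0.18 (SE 0.131), adjusted p 0.881. NUF2, a subunit of the NDC80 complex that grips microtubules, had 49.6, 57.3 and 52.1 CPM in tazemetostat mice, against 61.4, 55.3 and 55.2 CPM in vehicle mice. Only M_768 was within the vehicle range, and the log2 fold change was -0.11 (SE 0.0931), adjusted p 0.898. NDC80 itself had an estimate of -0.10 (SE 0.0975). CENPE, a kinetochore motor, averaged 66.4 ± 0.729 CPM in tazemetostat mice and 66.9 ± 15.2 CPM in vehicle mice (SD, n = 3 each), a wide vehicle spread around nearly equal means.

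Motor proteins of the spindle were below vehicle in all 5 estimates, by small amounts. KIF2C, also called MCAK, which takes apart microtubule ends at kinetochores, had 95.4, 102.8 and 97.2 CPM in tazemetostat mice, against 114.2, 104.5 and 103.9 CPM in vehicle mice. The groups did not overlap, with M_768 just under M_770. Its log2 fold change was -0.13 (SE 0.0856), adjusted p 0.859. KIF11, the motor that pushes spindle poles apart, KIF4A, a chromosome motor, and KIF20A and KIF23, motors of the central spindle, had log2 fold changes between -0.08 (KIF20A) and -0.04 (KIF4A). KIF4A and KIF23 were among the 3 least variable genes between mice, with SDs of 0.044 and 0.055 on the log2 scale.

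Among spindle-associated genes, NUSAP1 and HMMR held the lowest and the highest estimate of the 35. NUSAP1, which bundles microtubules around chromosomes, had 23.1, 24.4 and 23.0 CPM in tazemetostat mice, against 34.1, 25.2 and 21.5 CPM in vehicle mice. Vehicle mice were both its highest (M_766) and its lowest (M_770). The log2 fold change was -0.20 (SE 0.15), adjusted p 0.882, and it was 0.02 with M_766 left out. AC087721.2, a gene model on the same strand, shares 48050 bases with NUSAP1 and held 0 counts, so the count for NUSAP1 is uncertain. HMMR, a hyaluronan-binding protein that also works at spindle poles, had 38.8, 39.5 and 34.8 CPM in tazemetostat mice, against 31.4, 30.8 and 39.8 CPM in vehicle mice. M_770 was above all tazemetostat mice, and the other 2 vehicle mice were below them. Its log2 fold change was 0.15 (SE 0.115), adjusted p 0.889. DLGAP5, a kinetochore-fibre stabiliser, had an estimate of 0.02 (SE 0.0967).

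ANLN was the only gene of the 35 whose tazemetostat values all lay above the vehicle values. It encodes anillin, which organises the contractile ring, and had 42.6, 43.9 and 41.2 CPM in tazemetostat mice, against 36.6, 40.6 and 40.2 CPM in vehicle mice. The nearest mice, M_774 and M_769, were close to each other. The log2 fold change was 0.12 (SE 0.0868), adjusted p 0.868. Overlaps on the opposite strand matter only if reads were counted without strand, which is not stated. KIAA0895 on the opposite strand shares 320 bases with ANLN and held 13.2% as many counts. In the same way EXOSC9 held 70.9% as many counts as CCNA2, BRD8 240% and CDC23 127% as many as KIF20A, and PDZD11 25.5% as many as KIF4A, so the values of these genes carry the same uncertainty. ECT2, the exchange factor that activates RhoA for the ring, had an estimate of -0.05 (SE 0.0976). PRC1, the microtubule bundler of the central spindle, cannot be read from this table. It held 548 counts over the 6 mice, and AC068831.7, a gene model on the same strand sharing 29440 bases with it, held 4838.

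MKI67 and TOP2A, the usual proliferation markers, coat chromosomes and untangle their DNA. MKI67 had 864, 644 and 752 CPM in tazemetostat mice, against 646, 970 and 919 CPM in vehicle mice. M_768 and M_766, 1 mouse of each group, were alike and lowest, and the groups overlapped. Without library M_768_C, M_768 had 769 CPM and M_766 had 651 CPM, so they were no longer alike, and the groups still overlapped. With all libraries the log2 fold change of MKI67 was -0.17 (SE 0.160), adjusted p 0.917, with an interval of 0.697-fold to 1.14-fold. TOP2A had 568, 485 and 463 CPM in tazemetostat mice, against 495, 542 and 537 CPM in vehicle mice. M_767 was its highest and M_774 its lowest mouse, both of the tazemetostat group, and the log2 fold change was -0.05 (SE 0.104), adjusted p 0.967. Per length, over the 6 mice, TOP2A had the highest level of the 35 genes at 80.0 RPKM, which is CPM divided by gene length in kilobases. CDC20 followed at 67.5 RPKM, UBE2C at 66.7 RPKM, MKI67 at 62.4 RPKM and AURKB at 58.2 RPKM. ANLN at 6.79 RPKM and CENPE at 7.05 RPKM were the lowest apart from PRC1.

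The 3 libraries of a mouse agreed closely for most of the genes. The median SD within a mouse over the 35 was 0.088 on the log2 scale, and it was 0.054 with library M_768_C left out. In that library MKI67 had 333 CPM, against 778 CPM and 742 CPM in libraries A and B of the same mouse. Relative to its sister libraries, MKI67 changed by -56.2% there, CENPF by -37.1% and CENPE by -32.4%. UBE2C, AURKB and BIRC5 were instead 43.5%, 42.6% and 43.6% higher in it. Of the 35 genes, 18 were higher and 17 lower in M_768_C than in A and B. Without this library MKI67 averaged 797 ± 61.1 CPM in tazemetostat mice and 848 ± 172 CPM in vehicle mice (SD, n = 3 each), a log2 fold change of -0.09. For UBE2C the log2 fold change was then -0.12, for CDK1 -0.05, for AURKA -0.03, for BUB1 0.05 and for BUB3 -0.07, each further from 0 than with the library. It was -0.02 for TOP2A, -0.01 for KIF11, -0.05 for KIF20A, -0.03 for KIF23 and -0.02 for PRC1, each nearer to 0. The estimates of CENPE and MAD2L1 changed sign, to 0.04 and -0.02. The genes whose groups did not overlap then numbered 5 (14.3%), against 15% of all genes in the same fit, since AURKB and NUF2 joined CENPA, KIF2C and ANLN. Their adjusted p ran from 0.563 for CENPA to 0.705 for KIF2C, so none passed.

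**Figure D3:**
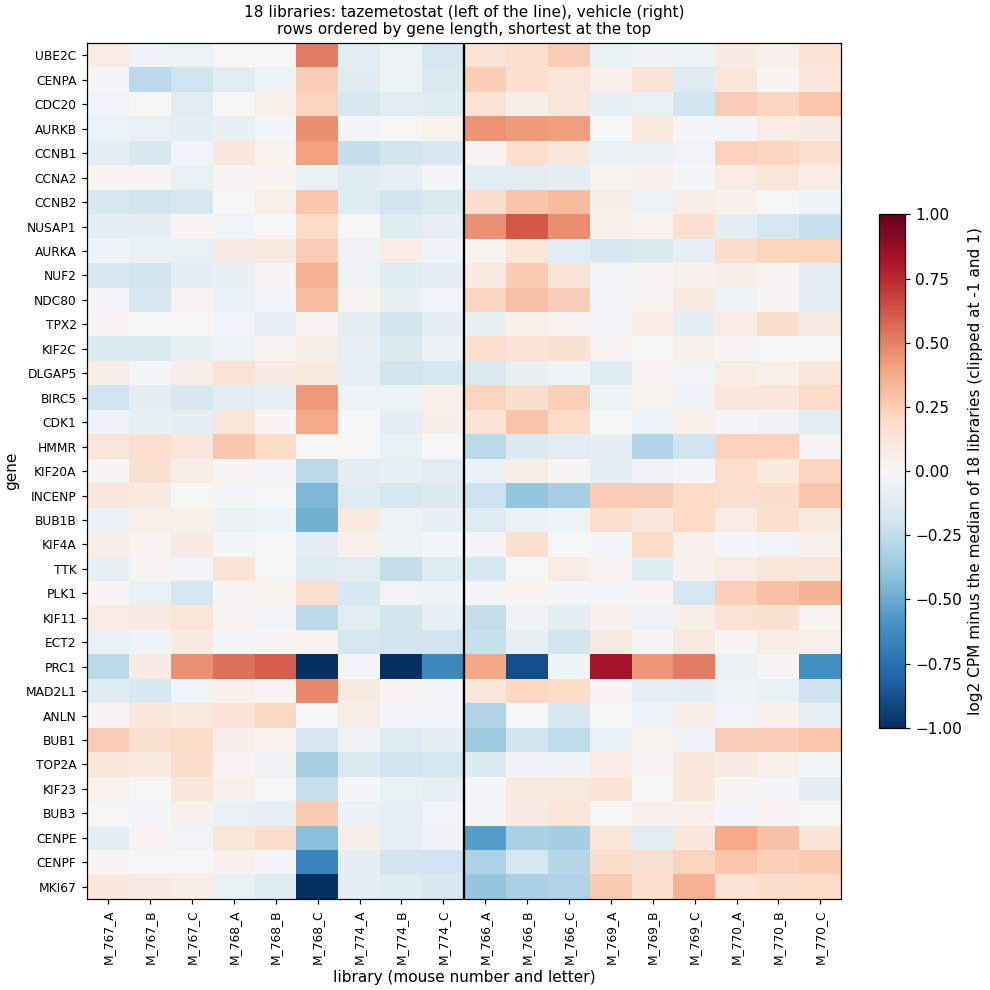
Level of each of the 35 genes in each of the 18 libraries, as log2 CPM minus the gene's median over the libraries and clipped at -1 and 1, with tazemetostat left of the line, vehicle right of it and the shortest genes at the top. Library C of M_768 departs from its sister libraries in both directions, with MKI67 and the sparsely counted PRC1 lowest in it.

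Genes of long and short deposited length moved apart in M_768_C. Over the 34 genes other than PRC1, the difference between M_768_C and its sister libraries had a Spearman rho of -0.641 with gene length. The same pattern was present in all 3 libraries of vehicle mouse M_766 combined, set against the other 5 mice, at a rho of -0.631. In M_766, NUSAP1 and AURKB were 0.54 and 0.41 higher on the log2 scale, and the differences of CENPE, INCENP and MKI67 were -0.45, -0.36 and -0.35. Signs were the same in both differences for 29 of the 35 genes. The mitotic genes were not alone in it, since over 5803 protein-coding genes with a mean above 5 log2 CPM the rho with length was -0.684 in M_768_C and -0.523 in M_766. These are descriptions across genes that share libraries, and genes are not independent replicates. With M_766 left out, the log2 fold changes of CENPF, INCENP and MKI67 were -0.31, -0.27 and -0.32, with edgeR adjusted p of 0.292, 0.396 and 0.484. These were the genes of the 35 with an unadjusted p under 0.05 in that fit, which kept library M_768_C. With M_768_C left out instead and M_766 kept, their log2 fold changes were -0.12, -0.08 and -0.09, each smaller in size than with all libraries.

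**Figure D4:**
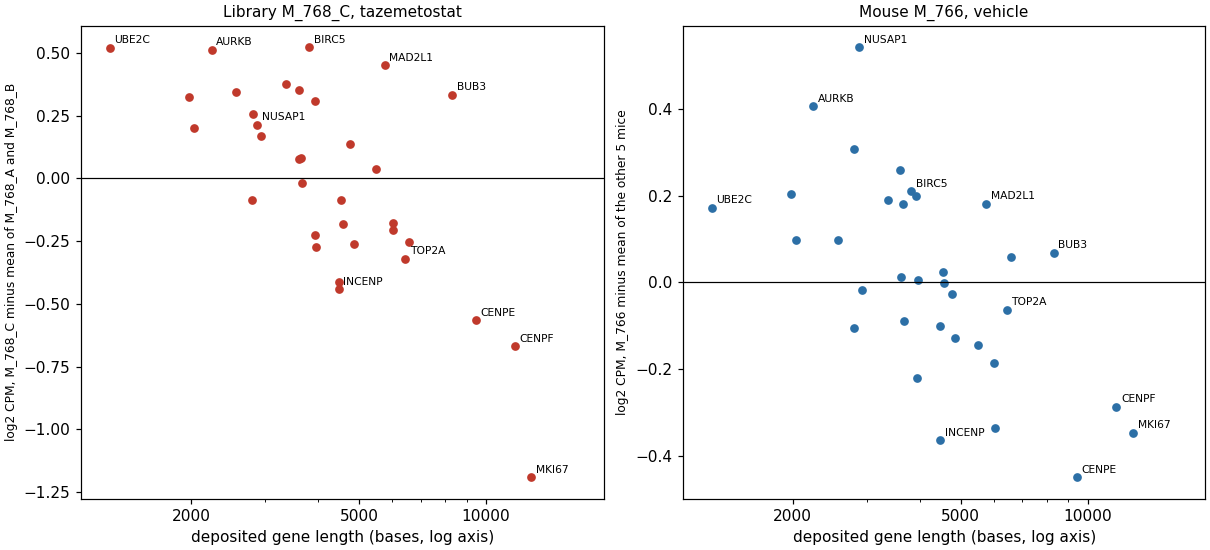
Difference of library M_768_C from libraries A and B of its mouse (left), and of mouse M_766 from the other 5 mice (right), in log2 CPM, against deposited gene length in bases on a log axis, for the 34 genes other than PRC1. Genes of short deposited length such as UBE2C and AURKB lie above 0 and those of long length such as CENPF and MKI67 below it in both. MAD2L1 and BUB3 have long deposited lengths and lie above 0.

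Other genes of mitosis and its control were examined in lists set by function. Called genes numbered 0 in each of them with edgeR, and the genes named are among the 3 with the smallest p in their list, with FOXM1 and MYBL2 added. Of 18 other spindle and cytokinesis genes, 13 had estimates below vehicle, with a median of -0.10 on the log2 scale, and 9 (50%) had groups that did not overlap, against 12.6% of all genes tested. Of these 9, 7 were lower, against 6% of all genes, and 2 higher, against 6.58%. The mean level of the 18 genes overlapped between the groups. It was 6.56, 6.48 and 6.45 log2 CPM in tazemetostat mice, against 6.49, 6.61 and 6.64 log2 CPM in vehicle mice. The count of 9 was not repeated with a mouse or library M_768_C left out. TACC3, which stabilises kinetochore fibres, had 305, 321 and 292 CPM in tazemetostat mice, against 396, 360 and 370 CPM in vehicle mice. Its groups were well apart, with a log2 fold change of -0.29 (SE 0.0893) and an adjusted p of 0.496. KIF22, a chromosome-arm motor, and KIF18A, which limits chromosome movement, had log2 fold changes of -0.24 (SE 0.0888) and 0.24 (SE 0.102), both without overlap between groups. Among 17 other genes of the anaphase-promoting complex, 11 were below vehicle, with a median of -0.04. FZR1, the activator of the complex in late mitosis and G1, had 75.1, 80.3 and 73.8 CPM in tazemetostat mice, against 102, 98.2 and 88.7 CPM in vehicle mice. FBXO5, or EMI1, the inhibitor of that complex, had 76.5, 71.3 and 70.7 CPM in tazemetostat mice, against 64.4, 61.5 and 56.7 CPM in vehicle mice. For both genes the groups were apart, in opposite directions, at log2 fold changes of -0.34 (SE 0.0903, adjusted p 0.445) and 0.26 (SE 0.0882, adjusted p 0.589).

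Of 30 other kinetochore genes, 17 were estimated below vehicle, with a median of -0.02. SPC24, of the NDC80 complex, and MAD1L1, the anchor of MAD2, were at -0.36 (SE 0.141) and -0.35 (SE 0.144) on the log2 scale, and their groups overlapped. Condensin, cohesin and separase genes were below vehicle in 11 of 17 estimates, with a median of -0.02 and none without overlap. Of 14 genes that govern mitotic entry, 8 were below vehicle, and CDC25C, the phosphatase that releases CDK1, had a log2 fold change of -0.33 (SE 0.148, adjusted p 0.756). Of 18 regulators of mitotic transcription, 10 were below vehicle, with a median of -0.02. FOXM1, the activator of G2/M genes, had 88.8, 72.4 and 73.9 CPM in tazemetostat mice, against 78.2, 88.6 and 93.5 CPM in vehicle mice. Its groups overlapped, and the log2 fold change was -0.15 (SE 0.109). MYBL2, the B-MYB partner of MuvB, had 702, 725 and 734 CPM in tazemetostat mice, against 915, 751 and 774 CPM in vehicle mice. All its tazemetostat values were below all vehicle values, at a log2 fold change of -0.17 (SE 0.103, adjusted p 0.837). CDKN1A, or p21, whose rise lets DREAM form, had 70.6, 69.5 and 80.8 CPM in tazemetostat mice, against 53.1, 50.1 and 31.0 CPM in vehicle mice. Every tazemetostat mouse was above every vehicle mouse, with a log2 fold change of 0.72 (SE 0.173) and an adjusted p of 0.370 in edgeR. DESeq2 gave CDKN1A an adjusted p of 0.00825.

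Genes of G1/S and replication, a neighbouring stage of the cycle, averaged 7.004 ± 0.018 log2 CPM in tazemetostat mice and 7.02 ± 0.029 log2 CPM in vehicle mice (SD, n = 3 each). Of 30, 17 were below vehicle, with a median of -0.01 on the log2 scale, against 30 of 35 and -0.08 for the mitotic genes. Groups did not overlap for 7 of the 30 (23.3%), 6 lower and 1 higher, against 12.6% of all genes and 3 of the 35 mitotic genes. The difference between the 2 lists was not tested. CDT1, a licensing factor for replication, had a log2 fold change of -0.23 (SE 0.0885), and the cyclin gene CCNE2 and the ribonucleotide reductase gene RRM2 had 0.32 (SE 0.127) and 0.26 (SE 0.118), none past the adjusted threshold.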

How the data were processed

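RNA of sorted tumour cells was measured in 18 libraries from 6 mice. The authors deposited whole-number read counts per gene, with gene symbols, coordinates and lengths, per the file headers. Per the submitters' processing notes, DESeq2 was used and the genome build was hg38. How reads were aligned and counted, with or without strand, is not given in the sources used here, so genes that overlap another gene model are uncertain. Coordinates of all 35 genes equalled GENCODE release 29.

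The 3 libraries of a mouse were summed, since the mouse received the treatment, and n is 3 mice per group. The meaning of the letters A, B and C is not given. Counts were tested in R 4.3.3 with edgeR 4.0.16 (TMM factors, filterByExpr at its minimum count of 10, and the quasi-likelihood test). The p-values were adjusted by Benjamini-Hochberg over 20301 genes, at a threshold of 0.05. The genes removed held 0.06% of the counts. Levels are CPM with TMM factors, and fold changes compare tazemetostat with vehicle as log2 values. The SE is approximate, the size of that log2 value over the root of F, and intervals use the t distribution with the fit's degrees of freedom. RPKM was computed from the deposited counts and gene lengths. Mouse totals were 55712115 to 69816184 counts, and precision rests on the 3 mice per group. The p-values set the difference between groups against the variation between mice within a group, an estimate that draws on all genes tested. With 3 mice against 3, an exact permutation test cannot go below 0.1.

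Named genes were the 12 with the smallest p and 12 well-known mitotic genes, and up to 3 with the smallest p of each other list, with FOXM1 and MYBL2. Others are named for their role or because a value of theirs is described, and were chosen after their values were seen. The 35 genes and the lists were chosen with earlier results of these data known. Alternatives were other scalings and filters, DESeq2 1.42.0, limma 3.58.1 (voom, and a fit of all 18 libraries in which mouse is a random effect), and leaving out each mouse. Library M_768_C was also left out. Steps were tested on simulated data. One marker gene is not reported here.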

Additional observations from a re-analysis of the deposited data

Results flagged for a closer look

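In the 9 libraries of a group, 17 values of the 35 genes and their mean stood far from the nearest other library relative to the group's range, out of 72 sets examined. Chance alone flags about 1 in 20 groups of independent values, a share that does not carry over here, since the 9 libraries come from 3 mice and all genes share them. All 17 were in library C of tazemetostat mouse M_768, so they are values of a single library and not 17 separate events. Its difference from libraries A and B was not particular to the 35 genes. That difference had an SD of 0.505 on the log2 scale over the 35, against 0.662 over all genes tested, which include sparsely counted ones.

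In 13 genes that library was the highest of the 9. Among the genes of mitotic entry and its kinases, it had 118.1 CPM of CCNB1 (next library 95.22), 71.08 CPM of CCNB2 (60.53), 116.9 CPM of CDK1 (97.71), 66.93 CPM of AURKA (59.72) and 167.7 CPM of AURKB (124.7). BIRC5 was at 204.5 CPM (158.0), BUB3 at 282.8 CPM (242.8), MAD2L1 at 167.2 CPM (127.1) and UBE2C at 118.8 CPM (86.94). Kinetochore and spindle genes were likewise high, with 30.9 CPM of CENPA (25.62), 156.8 CPM of NDC80 (128.8), 69.53 CPM of NUF2 (55.3) and 27.33 CPM of NUSAP1 (24.25).

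In 4 genes it was the lowest of the 9. It had 60.13 CPM of BUB1B (next library 78.91), 49.93 CPM of CENPE (62.47), 144.6 CPM of CENPF (198.5) and 332.9 CPM of MKI67 (732.4).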

How the results depend on the processing

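None of the 35 genes was called in any of the 14 alternatives, where 0% to 1.38% of all genes were. Their median log2 fold change stayed below 0 in all of them, from -0.11 with upper-quartile factors to -0.03 without M_774. Of the 35, 21 kept the sign of their fold change in every alternative and 14 did not, in 29 of 490 values. With upper-quartile factors, which put the median of all genes at -0.042 rather than -0.0091, MAD2L1 was at -0.0092 and DLGAP5 at -0.013, so both remained above that median. CENPE was at 0.017 with limma-voom, 0.0055 with the mouse as a random effect and 0.039 without library M_768_C, where MAD2L1 was at -0.017. Leaving out 1 mouse at a time gave -0.090 to 0.062 for CDK1, -0.091 to 0.085 for AURKA, -0.078 to 0.18 for BUB1, -0.036 to 0.12 for MAD2L1, -0.031 to 0.089 for DLGAP5 and -0.10 to 0.025 for KIF11. The ranges were -0.29 to 0.13 for PRC1, -0.11 to 0.011 for ECT2, -0.14 to 0.0078 for TOP2A, -0.14 to 0.00048 for UBE2C, -0.15 to 0.0049 for NDC80, -0.33 to 0.018 for NUSAP1, -0.16 to 0.16 for CENPE and -0.084 to 0.0090 for CCNA2. The causes of the other reversals were not tested.

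Genes whose groups did not overlap numbered 5 without library M_768_C (3 with it) and 3 to 10 when a mouse was left out, where the share over all genes was 15% and 19.8% to 28.1%. In the lists of other mitotic and G1/S genes, 0 were called by edgeR, 1 without a filter on low counts and 1 by DESeq2 (CDKN1A both times), and 4 with the mouse as a random effect (FZR1, FBXO5, TACC3 and CDKN1A). The fit with the random effect used all 18 libraries, M_768_C among them, with a single correlation within mice shared by all genes. Its calls therefore rest on libraries as well as on mice. Every fit that left out a mouse called 0 of the genes in these lists. Over all genes, edgeR called 7 (0.0345%), or 252 (0.685%) without the filter. DESeq2 called 119 (0.656% of genes given an adjusted p), and the fit with the random effect 225 (1.38%). Leaving out a mouse gave 0 to 59 (0% to 0.278%). The median SD between libraries of a mouse was 0.088 with library M_768_C and 0.054 without it. No paired analysis was possible because the mouse numbers differ between the groups and the meaning of the library letters is not given.

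Counts were not what limited these comparisons for 34 of the genes, each with at least 1188 counts in every mouse. PRC1 had as few as 58. With 3 mice per group, the intervals give the range of differences that these counts leave possible.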
